A study of Mus musculus with 16 samples.

Results

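The genes described here are Mmp12, Cd63 and 8 further genes known from macrophages of injured tissue: Gpnmb, Trem2, Lgals3, Ctss, Ctsd, Ctsb, Cd9 and Lpl. They are 10 of 20660 genes found by matching the accession printed for each array probe to a gene symbol, and 13 probes of the 55681 on the array stood for them. The 10 genes were named with earlier results of these arrays known, and Mmp12 and Cd63 were chosen by their furan differences in the tissue kept 3 weeks in formalin. In that comparison the values of the 10 genes are therefore a description and carry no test.

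Liver of female B6C3F1 mice was measured, a hybrid strain widely used in toxicology, bought at 5 to 6 weeks of age. The treated mice received furan, a volatile compound that liver P450 enzymes turn into a reactive product, gavaged in corn oil at 8 mg/kg body weight for 21 days, and the controls received the oil alone. Livers were collected 4 h after dosing ended. They were fixed in formalin for 18 h or for 3 weeks and embedded in paraffin, with RNA from 1 section of 10 µm (18 h) or 2 such sections (3 weeks), so section number and time in formalin cannot be told apart. The groups were furan at 18 h, corn oil at 18 h, furan at 3 weeks and corn oil at 3 weeks, with 4 arrays each. Every array compared 1 liver in Cy5 with a pool of all samples in Cy3, so each value below is a log2 ratio of sample over pool, a relative level that cannot be set against that of another probe. Corn oil arrays 2.1 and 2.2 at 3 weeks carry the same sample number and were averaged as 1 sample, which left 3 control samples there and 15 samples in all. The sample numbers are also the same at both times, but the labels do not say that the same animals were used. If they were, the 18 h tests of Mmp12 and Cd63 are not independent of the choice made at 3 weeks. The p-values measure the spread between these samples.

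RNA integrity numbers were between 1.3 and 2.4 on a scale where intact RNA is near the top, as is usual for paraffin tissue. Probes well above background made up 51.9% to 55.2% on furan and 44.3% to 50.1% on corn oil arrays at 18 h, and 35.9% to 41.4% on furan and 32.3% to 36.7% on corn oil arrays at 3 weeks. This share was higher on furan arrays at 18 h, as were most of the members, and its part in the results was not tested. All 12 hepatocyte markers looked at were measured, and Alb, the serum albumin gene, was well above background on all 4 arrays of every group. These are pieces of whole liver, in which fewer cells of a type and less RNA per cell cannot be told apart.

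Macrophages that take up dead cells and lipid in injured tissue switch on a shared set of genes. TREM2, a surface receptor that signals through the adaptor TYROBP, senses lipids and cell debris, and GPNMB, CD9, CD63, lipoprotein lipase and galectin-3 are among the proteins such cells make. Their lysosomes hold cathepsins, and macrophage elastase, the product of Mmp12, is secreted to cut elastin and other matrix proteins. In liver such cells gather around fat-laden or dying hepatocytes and in scar tissue. Several of these genes are not restricted to macrophages: cathepsins B and D, Cd63 and Cd9 are expressed by many cell types.

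In livers fixed for 18 h, Mmp12 rose 2.14-fold with furan and Cd63 1.54-fold, and Lgals3, Ctsb and Cd9 rose 1.51-, 1.45- and 1.42-fold. Each of these rests on 1 tested probe, and the sizes depended on the scaling. Where 2 probes of a gene were both called at 18 h, 43.5% of the genes had opposite directions. Trem2, Ctss and Lpl did not pass the test there, and the 2 measured probes of Ctsd went in opposite directions. In livers fixed for 3 weeks the largest differences between furan and corn oil were in Mmp12, which was higher with furan by 1.42 on the log2 scale against control arrays not well above background, and in Cd63, Trem2 and Lgals3, which were 2.15-, 2.14- and 1.64-fold higher. Several of the same probes also differed between the times in formalin, which differ in section number as well. Trem2, Ctss, Lgals3 and Cd63 were between 2.64- and 3.07-fold higher at 3 weeks than at 18 h. These differences were smaller with arrays only centred on their median. Gpnmb could not be measured.

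The sequence ahead of an annotated start is shown for 4 of the genes, to set it beside the levels that follow. These 4 had the largest furan differences among the members at 3 weeks. Sequences and positions are from RefSeq on GRCm38.p6, whereas the array files name mm9, so the positions apply only to these sequences. The 250 bases before the start are in lower case and read 5′ to 3′. Capitals mark TGANTCA, a pattern that covers the consensus bound by AP-1 factors and reads the same on both strands. It was searched together with CACGTG, the E-box bound by the lysosomal regulator TFEB.
Mmp12, chr9:7347124-7347373, plus strand: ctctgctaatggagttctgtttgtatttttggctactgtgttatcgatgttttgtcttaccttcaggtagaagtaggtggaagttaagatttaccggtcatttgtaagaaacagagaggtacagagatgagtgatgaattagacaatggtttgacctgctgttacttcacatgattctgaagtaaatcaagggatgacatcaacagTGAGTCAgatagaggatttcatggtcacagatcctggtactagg
Trem2, chr17:48346151-48346400, plus strand: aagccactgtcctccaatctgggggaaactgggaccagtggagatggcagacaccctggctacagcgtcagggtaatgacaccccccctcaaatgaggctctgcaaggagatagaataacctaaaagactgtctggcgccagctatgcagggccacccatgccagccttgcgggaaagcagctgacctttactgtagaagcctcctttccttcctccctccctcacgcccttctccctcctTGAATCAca
Cd63, chr10:128909095-128909344, plus strand: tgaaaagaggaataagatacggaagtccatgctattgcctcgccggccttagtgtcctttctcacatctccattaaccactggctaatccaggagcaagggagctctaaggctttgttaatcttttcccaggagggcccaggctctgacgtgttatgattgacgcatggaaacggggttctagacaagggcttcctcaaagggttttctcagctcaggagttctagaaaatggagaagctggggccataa
Lgals3, chr14:47373610-47373859, plus strand: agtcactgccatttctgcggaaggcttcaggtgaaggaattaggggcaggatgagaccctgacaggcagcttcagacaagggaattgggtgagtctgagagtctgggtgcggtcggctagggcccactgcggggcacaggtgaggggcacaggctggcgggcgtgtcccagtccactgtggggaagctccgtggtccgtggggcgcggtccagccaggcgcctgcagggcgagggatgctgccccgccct
The Mmp12 window holds TGAGTCA beginning 44 bases ahead of that start, and the Trem2 window holds TGAATCA beginning 9 bases ahead of its start. The windows shown for Mmp12 and Cd63 lie inside the annotated genes, which begin at 7344397 and 128896231. For Mmp12 the window directly ahead of the gene's first base, chr9:7344147-7344396, holds neither motif. Neither motif was found in the Cd63 and Lgals3 windows shown. Among all 32851 windows of the same length, 6.75% held TGANTCA and 6.02% held CACGTG. Windows were at hand for 8 of the 10 genes, all but Ctsb and Lpl, 9 windows in all. Among these, Ctsd, the gene of cathepsin D, held CACGTG at 245 and at 98 bases ahead of its start, and the windows of Gpnmb, Ctss and Cd9 held neither motif. A match is a match of letters and says nothing of binding in these livers.

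Of the 13 probes, 10 were bright enough to be tested, and 29690 probes were tested in all. Testing a probe required a Cy5 signal well above background on 3 or more arrays within any group. The 3 left out were the only probe of Gpnmb, a second probe of Mmp12 and a second probe of Lpl, each well above background on 0 of 16 arrays. Their signal was between 1.41 and 2.30 times the local background on every array, so they give no measure of furan's effect. Of the 10 tested probes, 9 were well above background on all 4 arrays of every group. The exception was the first Mmp12 probe, which was well above background on 4 of 4 furan arrays at 18 h, 4 of 4 corn oil arrays at 18 h, 4 of 4 furan arrays at 3 weeks and 0 of 4 corn oil arrays at 3 weeks.

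**Figure D1:**
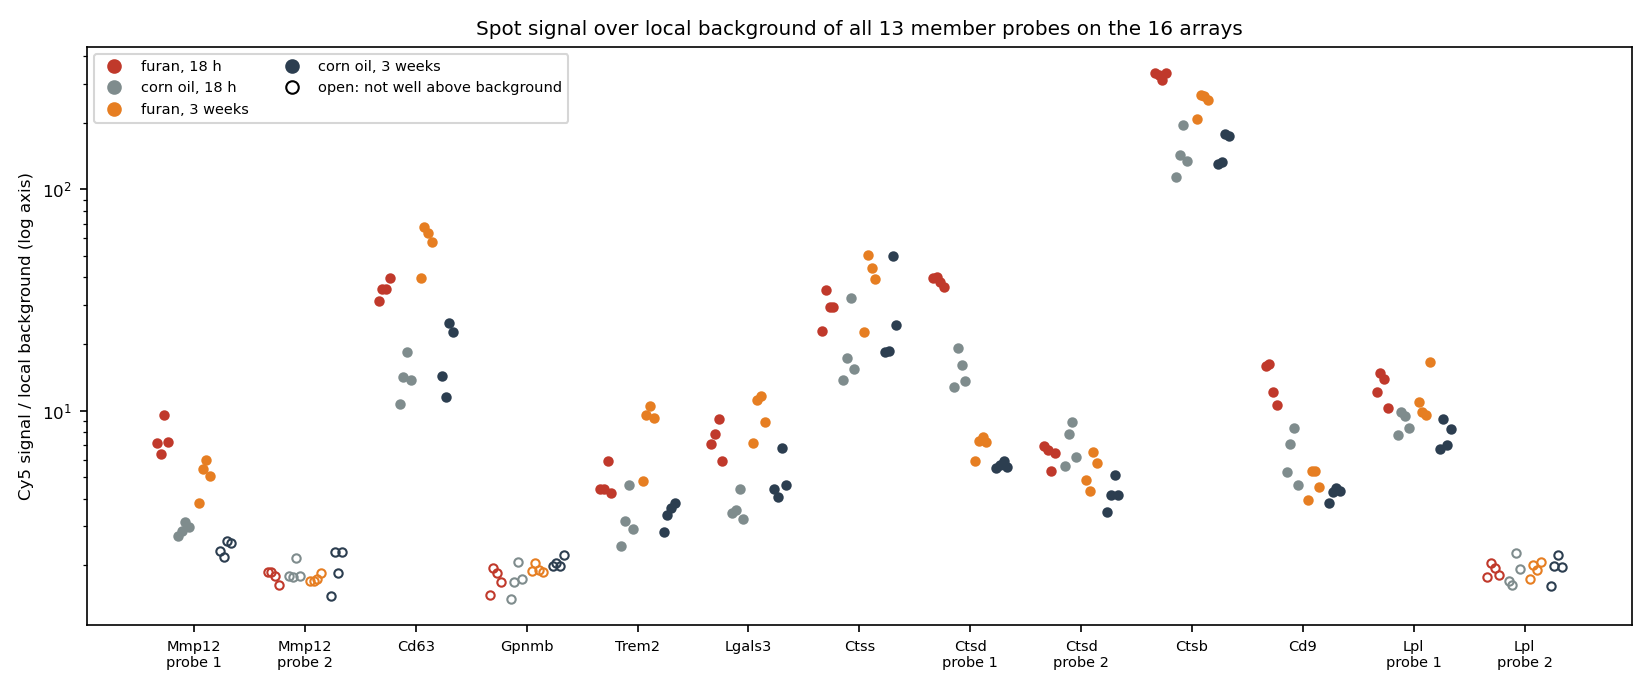
Cy5 signal divided by local background (log axis) of the 13 member probes, 1 point per array, with open points where the spot was not well above background. Gpnmb and the second probes of Mmp12 and Lpl are drawn open on all 16 arrays, and the first Mmp12 probe is open on the 4 corn oil arrays at 3 weeks.

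Mmp12, the secreted elastase, had log2 levels of -0.04, -0.36, 0.57 and 0.08 in furan livers 41, 42, 43 and 44 at 18 h, against -1.002, -1.21, -1.04 and -0.89 in corn oil livers 2, 3, 4 and 6. Every furan liver was above every control. The difference was 1.099 on the log2 scale (SE 0.13, limma adjusted p = 0.000104), and a difference at least as large in size was found in 0.970% of all tested probes. Within the first slide alone it was 0.92 and within the second 1.27. It depended on how background was handled, with 0.83 without background subtraction and 1.94 with the scanner software's own log ratio.

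At 3 weeks Mmp12 had 0.37, 0.52, 0.70 and 0.39 in furan livers 41 to 44, against -0.999, -0.95 and -0.83 in corn oil livers 2, 4 and 6. The groups did not overlap, and the difference was 1.42 (SE 0.14), with 1.37 within the first slide and 1.51 within the second. None of the control arrays was well above background there, so the size of the difference is poorly determined. The Cy5 log2 signals were 9.07 ± 0.16 (SD, n = 4) in furan and 7.55 ± 0.01 (SD, n = 3) in corn oil livers after scaling between arrays. These are single-channel signals and so are open to differences between arrays. The small SD in corn oil livers is that of signals not well above background. The difference was 1.00 without background subtraction, 1.00 in the authors' deposited values and 2.89 with the scanner software's log ratio. By mean level the 4 groups ran, from the highest, furan at 3 weeks, furan at 18 h, corn oil at 3 weeks and corn oil at 18 h. Only the step between the furan groups and the controls was free of overlap: the samples of both furan groups overlapped, and so did those of both control groups.

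Cd63 encodes a tetraspanin of late endosomes, lysosomes and exosomes. Its levels at 18 h were -0.52, -0.43, -0.23 and -0.03 in furan livers 41 to 44, against -1.01, -0.94, -0.86 and -0.88 in the corn oil livers. The groups did not overlap, and Cd63 rose by 0.62 (SE 0.10, limma adjusted p = 0.000715). The rise was 0.43 within the first slide and 0.82 within the second, and 1.17 when arrays were only centred on their median.

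At 3 weeks Cd63 had 1.21, 1.35, 1.44 and 1.37 in furan livers 41 to 44, against -0.13, 0.37 and 0.47 in corn oil livers 2, 4 and 6. All 4 furan livers were above all 3 controls, among which liver 2 was the lowest, and the difference was 1.104 (SE 0.17), with 1.13 and 1.26 within the slides. Both 3-week groups averaged higher than both 18 h groups, but corn oil livers at 3 weeks and furan livers at 18 h overlapped.

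Cd9 encodes a tetraspanin of the cell surface. It had 0.28, 0.22, 0.31 and 0.20 in furan livers at 18 h, against -0.11, -0.40, -0.20 and -0.33 in corn oil livers, a rise of 0.51 (SE 0.09, limma adjusted p = 0.00111) with no overlap. Median centring alone gave 0.93. At 3 weeks Cd9 was between -0.08 and 0.04 in furan livers and between -0.20 and -0.06 in corn oil livers, which overlapped, and the difference was 0.12 (SE 0.13).

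Trem2, the lipid-sensing receptor, stood apart between furan and corn oil livers at 3 weeks only. At 18 h it had -0.77, -0.96, -0.60 and -0.48 in furan livers, against -0.86, -0.75, -0.57 and -0.71 in corn oil livers. These overlapped throughout, and the difference was 0.02 (SE 0.11, limma adjusted p = 0.9), negative in the first slide at -0.20 and positive in the second at 0.24. At 3 weeks Trem2 had 1.00, 1.74, 1.36 and 1.71 in furan livers, against 0.26, 0.54 and 0.29 in corn oil livers. The groups did not overlap, the lowest furan liver was 41, and the difference was 1.095 (SE 0.19). This is about as large as that of Cd63, with a larger error. Whether the furan difference itself differed between 18 h and 3 weeks was not tested.

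Lgals3 encodes galectin-3, a sugar-binding protein secreted by activated macrophages and also recruited to damaged lysosomes. It had 0.04, -0.05, 0.15 and -0.26 in furan livers at 18 h, against -0.62, -0.62, -0.45 and -0.81 in corn oil livers, a rise of 0.60 (SE 0.11, limma adjusted p = 0.00123) without overlap. With the scanner software's log ratio the rise was 0.96, and with median centring alone 0.93. At 3 weeks Lgals3 had 1.28, 1.70, 1.43 and 1.33 in furan livers, against 0.57, 0.98 and 0.63 in corn oil livers, again without overlap, and the difference was 0.71 (SE 0.15). Its 4 groups stood in steps with no overlap between neighbours, furan at 3 weeks highest, then corn oil at 3 weeks, furan at 18 h and corn oil at 18 h.

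Among the lysosomal proteases, Ctsb, the gene of the cysteine protease cathepsin B, was the brightest member relative to its background. It had -0.05, 0.01, -0.03 and 0.04 in furan livers at 18 h, against -0.63, -0.60, -0.39 and -0.56 in corn oil livers, and rose by 0.54 (SE 0.08, limma adjusted p = 0.000568). At 3 weeks it had -0.14, 0.13, -0.10 and -0.14 in furan livers, against -0.35, -0.31 and -0.31 in corn oil livers. The groups stood apart at both times, and the difference at 3 weeks was 0.26 (SE 0.13). With median centring alone it was 1.101 at 18 h and 0.74 at 3 weeks.

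Ctss encodes cathepsin S, the cysteine protease that antigen-presenting cells use to process the MHC class II invariant chain. At 18 h it had -1.07, -0.56, -0.50 and -0.73 in furan livers, against -0.65, -0.77, 0.12 and -0.71 in corn oil livers 2, 3, 4 and 6. Control liver 4 stood well above the other controls, the groups overlapped, and the difference was -0.21 (SE 0.19, limma adjusted p = 0.391), or 0.02 without that liver. At 3 weeks Ctss was between 0.72 and 1.31 in furan livers and between 0.41 and 1.26 in corn oil livers, with control liver 4 again the highest of its group, and the difference was 0.22 (SE 0.20).

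Ctsd, the gene of the aspartic protease cathepsin D, was read by 2 probes that disagreed. At 18 h the first had 0.42, 0.39, 0.37 and 0.33 in furan livers, against -0.36, -0.10, -0.28 and -0.05 in corn oil livers, a rise of 0.58 (SE 0.09, limma adjusted p = 0.000629). The second had -0.13, -0.30, -0.22 and 0.02 in furan livers, against 0.58, 0.50, 0.55 and 0.38 in corn oil livers, a fall with a log2 difference of -0.66 (SE 0.09, limma adjusted p = 0.000327). With median centring alone the first stood at 1.12 and the second at -0.39. Neither probe's groups overlapped, so Ctsd has no single direction here. At 3 weeks the first probe's difference was 0.03 (SE 0.14) and the second's 0.27 (SE 0.15). Such disagreement was common on these arrays: of 930 genes whose 2 brightest tested probes were both called at 18 h, 405 (43.5%) had probes of opposite direction. The other measured members had 1 tested probe each, so their directions could not be checked in this way.

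Lpl encodes lipoprotein lipase, which frees fatty acids from circulating triglyceride. At 18 h it had -1.30, -1.14, -1.07 and -1.39 in furan livers, against -1.18, -1.45, -1.09 and -0.79 in corn oil livers, which overlapped. The difference of -0.10 (SE 0.13, limma adjusted p = 0.558) did not pass the test, and with median centring alone it was 0.38 (limma adjusted p = 0.0309). At 3 weeks Lpl was between -0.42 and 0.18 in furan livers and between -0.64 and -0.12 in corn oil livers, with a difference of 0.16 (SE 0.19).

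**Figure D2:**
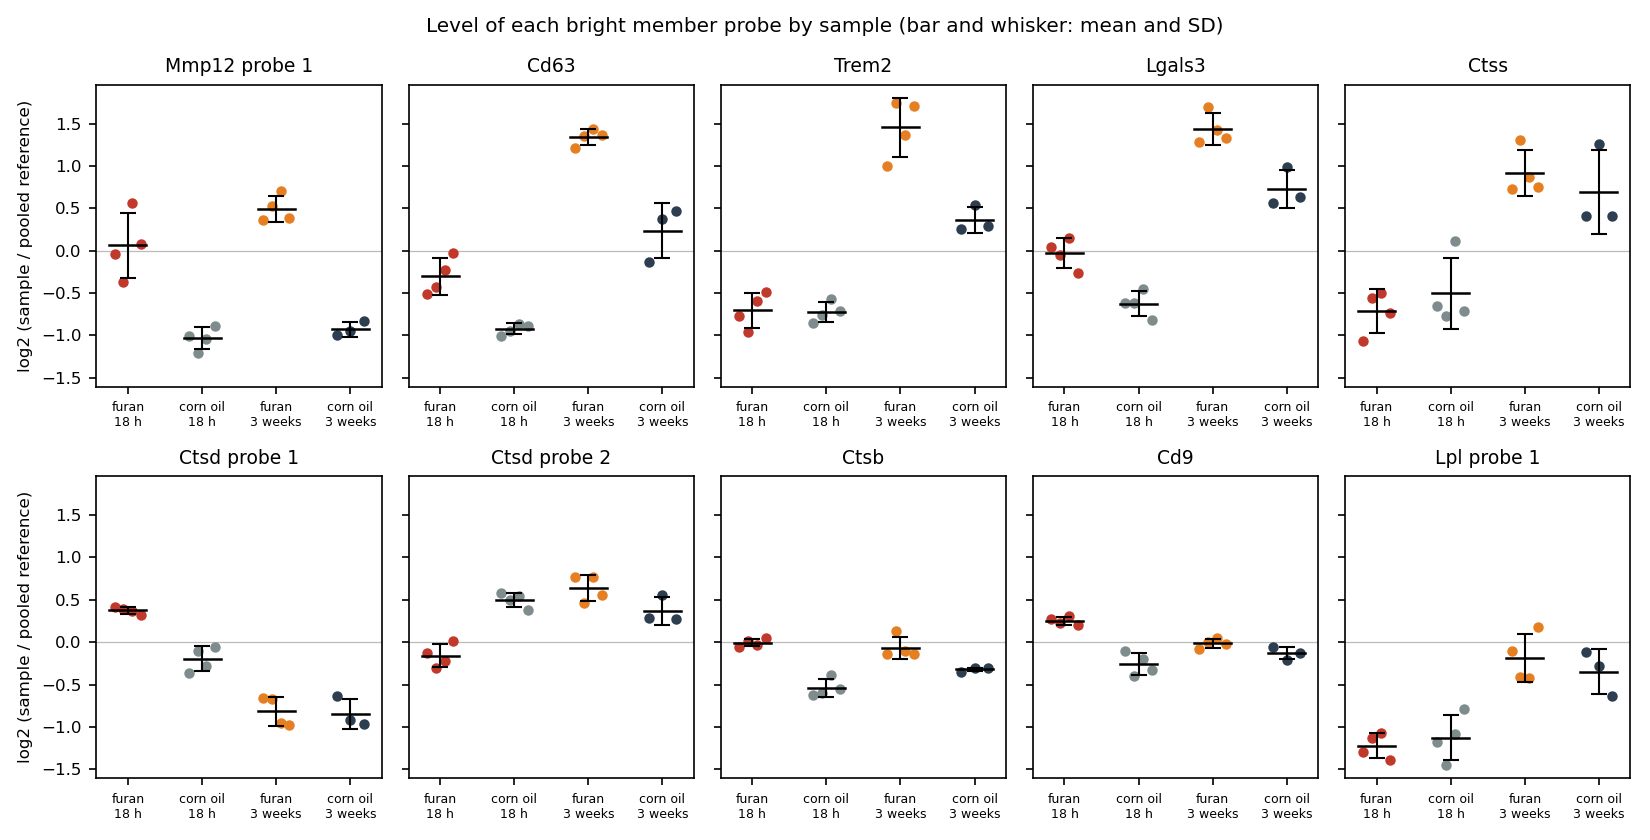
Log2 level (sample over pooled reference) of the 10 tested probes in each sample, with the mean and SD of furan and corn oil livers at 18 h (n = 4 each) and at 3 weeks (n = 4 and 3). Mmp12 separates furan from corn oil at both times, Trem2 separates them only among the 3-week samples, and the 2 Ctsd probes run in opposite directions at 18 h.

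Counted together, 7 of the 10 tested member probes passed the threshold at 18 h, 6 higher and 1 lower with furan. Among all tested probes 47.2% passed there, 20.4% higher and 26.8% lower. The groups did not overlap in 7 of the 10 probes, against 39.2% of all probes. The median log2 difference was 0.52 over the member probes and -0.05 over all tested probes. The split of all calls at 18 h depended on the scaling: 43.2% of calls were higher with furan, but 55.0% in the authors' deposited values and 78.6% with median centring alone. That last scaling put the median of all probes at 0.10 and the median of the member probes at 0.93. At 3 weeks 2 of the 10 passed, the Mmp12 and Cd63 probes that the choice of genes rests on, where 0.118% of all probes passed, 0.0876% higher and 0.0303% lower, and nothing is read from this count. The groups did not overlap in 5 of 10 member probes at 3 weeks, Mmp12 and Cd63 among them, where this held for 13.4% of all probes. The median difference at 3 weeks was 0.26 over the member probes and -0.00 over all probes. Both values include the probes that the choice of genes rests on, so nothing is read from them either. The 3-week calls over all probes rest on single samples. In the main fit 35 passed, with 3 left without corn oil liver 2, 0 without corn oil liver 6 and 770 without corn oil liver 4.

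**Figure D3:**
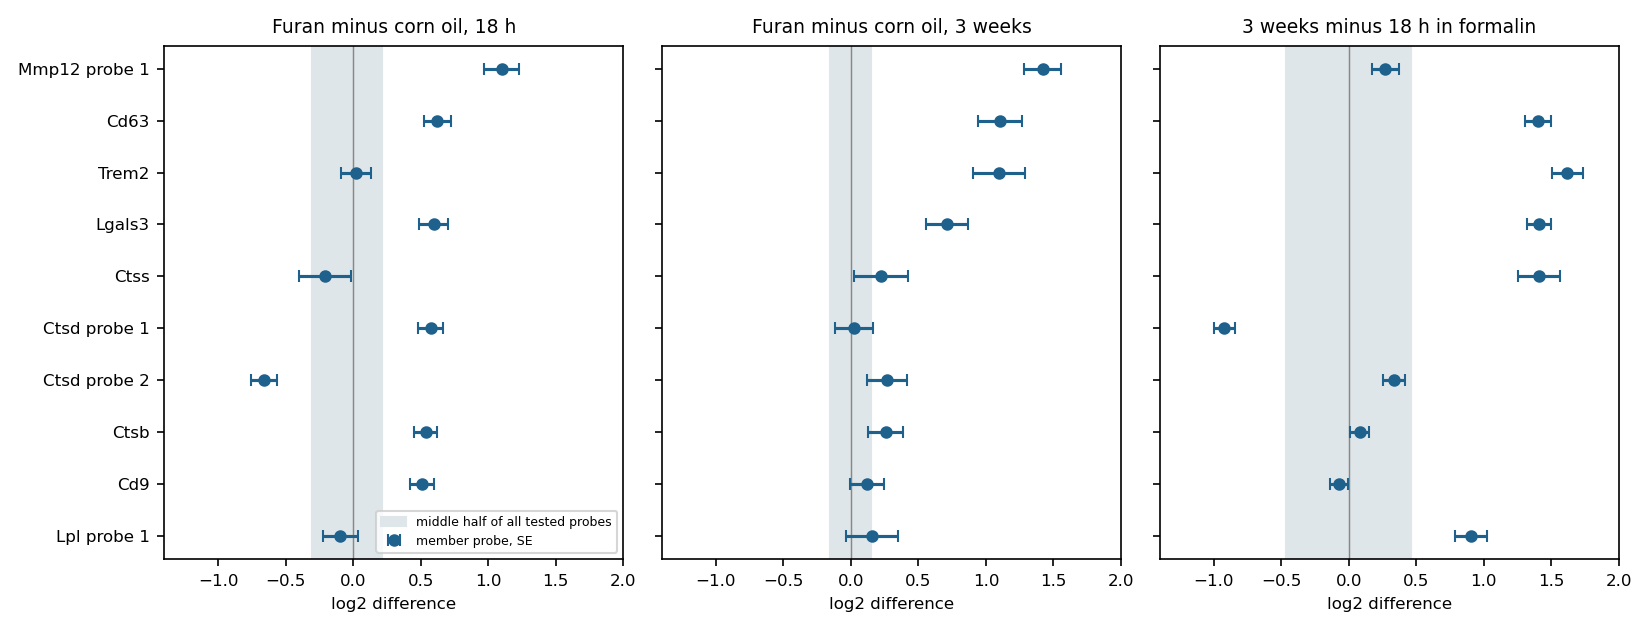
Log2 differences with their SE for the 10 tested member probes: furan minus corn oil at 18 h, furan minus corn oil at 3 weeks, and 3 weeks minus 18 h in formalin. The grey band holds the middle part of all 29690 tested probes, between their lower and upper quartiles. The points of Mmp12, Cd63, Lgals3 and Ctsb lie to the right of the band in both furan panels, and Trem2 lies inside it at 18 h.

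Time in formalin, taken as 3 weeks minus 18 h over both treatments, passed the threshold for 8 of 10 member probes, 7 higher and 1 lower at 3 weeks. Of all tested probes 74.2% passed, 37.3% higher and 36.9% lower. The samples of the 2 times did not overlap in 5 of the 10, against 35.3% of all probes. Trem2 rose by 1.62 (SE 0.11, limma adjusted p = 1.2e-09), with all 7 samples of 3 weeks above all 8 of 18 h. Ctss rose by 1.41 (SE 0.16, limma adjusted p = 4.07e-07) and Lgals3 by 1.41 (SE 0.09, limma adjusted p = 4.34e-10), both without overlap.

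Cd63 rose by 1.40 with time in formalin (SE 0.09, limma adjusted p = 7.23e-10), and Lpl by 0.91 (SE 0.12, limma adjusted p = 3.19e-06). With arrays only centred on their median, Lpl stood at 0.22 and did not pass (limma adjusted p = 0.105). For Mmp12 the change was only 0.27 (SE 0.10, limma adjusted p = 0.019), and it turned to -0.15 with the scanner software's log ratio and to -0.30 with median centring alone. With the sample number as a block Mmp12 did not pass. The first Ctsd probe fell by 0.92 (SE 0.08, limma adjusted p = 1.81e-08), and the second rose by 0.33 (SE 0.08, limma adjusted p = 0.0015), or stood at -0.31 with median centring alone. In the authors' deposited values Mmp12 at 0.18 and the second Ctsd probe at 0.15 did not pass (limma adjusted p = 0.0614 and 0.0702). Ctsb at 0.08 and Cd9 at -0.07 did not pass (limma adjusted p = 0.292 and 0.36). Cd9 passed at -0.23 with the scanner software's log ratio, at -0.80 with median centring alone and at -0.18 in the authors' deposited values, and Ctsb passed at 0.16 without background subtraction. Under median centring alone, which put the median of all probes at -0.26, the share of calls higher at 3 weeks was 24.7%, against 50.3% with the loess normalization used here. The 8 member probes called under that centring were 4 higher and 4 lower. Trem2 then stood at 1.05, Ctss at 0.89, Lgals3 at 0.76, Cd63 at 0.88 and the first Ctsd probe at -1.70.

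Partner genes of the same macrophage state were read from lists chosen with earlier results of these data known, each gene by its brightest tested probe. Each direction below is thus that of 1 probe. Where 2 probes of a gene were both called at 18 h, 43.5% of the genes had opposite directions. Of 28 further damage-associated macrophage genes, 20 were measured, and at 18 h 7 were higher and 5 lower with furan, with a median difference of 0.21. That is 60% called, against 47.2% of all tested probes. Lgmn, the gene of the lysosomal protease legumain, rose by 0.71 (SE 0.10, adjusted p = 0.000294 in limma), and Pld3, a lysosomal exonuclease gene, by 0.57 (SE 0.08, adjusted p = 3e-04 in limma). Apoe, the apolipoprotein that carries lipid to cells, fell by 0.84 (SE 0.08, adjusted p = 3.24e-05 in limma). Tyrobp, the adaptor of the TREM2 receptor, fell by 1.13 (SE 0.17, adjusted p = 0.000369 in limma), while Trem2 itself stood at 0.02. At 3 weeks 0 of the 20 passed in limma (4 at an unadjusted p under 0.05): Capg, an actin-capping protein gene, had a difference of 0.55 (adjusted p = 0.224) and Ccl4, a chemokine gene, 0.49 (adjusted p = 0.257). Cd68 and Clec7a had no matched probe, and Itgax, Cst7, Cd36, Ccl3, Ms4a7 and Syngr1 were too dim.

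In the main scaling more of the other lysosome genes fell than rose at 18 h. Of 39 measured, 8 were higher and 21 lower with furan, or 74.4% called. Among all tested probes 20.4% were higher and 26.8% lower. The median difference was -0.28, against -0.05 over all tested probes. The split of all calls at 18 h depended on the scaling, and how far this list depends on it is not given here. The cathepsin gene Ctsf fell by 1.04 (SE 0.10, adjusted p = 3.21e-05 in limma) and the glycosaminoglycan-degrading Naglu by 0.93 (SE 0.09, adjusted p = 4.18e-05). Npc1 and Npc2, which move cholesterol out of lysosomes, fell by 1.06 (SE 0.11, adjusted p = 5.66e-05) and by 0.87 (SE 0.10, adjusted p = 8.07e-05) in the same fit. At 3 weeks 0 of 39 passed in limma (5 at an unadjusted p under 0.05), where Sgsh had -0.60 (adjusted p = 0.172) and Ppt1 0.47 (adjusted p = 0.256).

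Relatives of Cd63 and Cd9 were more often called higher than lower in the main scaling. Of 18 other tetraspanins measured, 8 were higher and 3 lower with furan at 18 h, or 61.1% called. Among all tested probes 20.4% were higher and 26.8% lower. The median difference was only 0.09, against -0.05 over all tested probes. Scaling moved the split of all calls, and its effect on this list is not given here. Tspan31 rose by 0.58 (SE 0.09, adjusted p = 0.000436 in limma) and Tspan7 by 0.57 (SE 0.08, adjusted p = 0.000266), whereas Cd151, a laminin-receptor partner, fell by 0.73 (SE 0.08, adjusted p = 7.85e-05) and Tspan18 by 0.73 (SE 0.12, adjusted p = 0.000672). In the 3-week samples 0 of 18 passed in limma (1 unadjusted), with Tspan4 at 0.48 (adjusted p = 0.202) and Tspan14 at -0.26 (adjusted p = 0.479).

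Of 24 other metalloproteinases and their inhibitors only 11 were measured, since most, Mmp9, Mmp13 and Timp1 among them, were too dim. At 18 h 5 were higher and 1 lower with furan, or 54.5% called against 47.2% of all tested probes, with a median of 0.12. The sheddase gene Adam10 rose by 0.63 (SE 0.10, adjusted p = 0.000481 in limma), Mmp24 by 0.54 (SE 0.08, adjusted p = 0.000443) and the inhibitor Timp3 by 0.27 (SE 0.09, adjusted p = 0.0283). The membrane-bound Mmp15 fell by 0.73 (SE 0.11, adjusted p = 0.000433). At 3 weeks 0 of 11 passed in limma (1 unadjusted), with Mmp28 at -0.57 (adjusted p = 0.289) and Adam10 at 0.20 (adjusted p = 0.587).

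Among cathepsin inhibitors and other galectins, 2 of 12 measured were higher and 2 lower at 18 h, or 33.3% called against 47.2% of all tested probes. Cst3, the secreted cathepsin inhibitor cystatin C, rose by 0.47 (SE 0.09, adjusted p = 0.00232 in limma), and Cstb, the intracellular inhibitor cystatin B, fell by 0.57 (SE 0.10, adjusted p = 0.00112). Lgals1 rose by 0.41 (SE 0.08, adjusted p = 0.00253) and Lgals9 fell by 0.82 (SE 0.08, adjusted p = 4.25e-05), so Lgals9 went the other way from Lgals3. The median was -0.03. At 3 weeks 0 of 12 passed in limma (0 unadjusted), with Lgals3bp at 0.27 (adjusted p = 0.435) and Lgals2 at -0.28 (adjusted p = 0.517).

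Partners of lipoprotein lipase included 0 higher and 4 lower genes of 16 measured at 18 h, or 25% called, against 47.2% of all tested probes. The median was -0.05, the same as over all tested probes. The hepatic lipase gene Lipc fell by 1.49 (SE 0.09, adjusted p = 5.33e-06 in limma), the remnant receptor gene Lrp1 by 0.86 (SE 0.09, adjusted p = 5.1e-05) and Lipe, the gene of hormone-sensitive lipase, by 0.82 (SE 0.09, adjusted p = 6.17e-05). Lmf1, which matures lipases in the endoplasmic reticulum, fell by 0.23 (SE 0.08, adjusted p = 0.0301). In the 3-week samples 0 of 16 passed in limma (4 unadjusted), with Lipc at -0.45 (adjusted p = 0.214) and Apoc3 at 0.36 (adjusted p = 0.271).

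Markers of the cells that could carry these genes were read beside them, again by 1 probe per gene and with the same limit on direction. The macrophage surface gene Adgre1 had a furan difference of 0.03 at 18 h (SE 0.18, limma adjusted p = 0.903) and -0.06 at 3 weeks (SE 0.19, limma adjusted p = 0.921), and it was well above background on all 4 arrays of every group. Clec4f, a lectin gene of resident Kupffer cells, fell by 0.27 at 18 h (SE 0.09, limma adjusted p = 0.0287) and had -0.27 at 3 weeks (SE 0.13, limma adjusted p = 0.394). Of 15 measured Kupffer cell markers, 1 was higher and 5 lower at 18 h, or 40% called. Among all tested probes 47.2% were called there, 20.4% higher and 26.8% lower, so this list was not called more often. The mean log2 level over the list was -0.06 to 0.12 in furan and -0.01 to 0.54 in corn oil livers. The complement genes C1qb and C1qa fell by 1.26 (SE 0.17, limma adjusted p = 0.00023) and by 1.04 (SE 0.15, limma adjusted p = 0.000288), but C1qc rose by 0.45 (SE 0.13, limma adjusted p = 0.0145).

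The pan-leukocyte gene Ptprc fell by 0.55 at 18 h (SE 0.16, limma adjusted p = 0.0182), where it was well above background on 3 furan and 3 corn oil arrays, and it was well above background on 0 arrays at 3 weeks. Of 13 monocyte and neutrophil markers measured, 38.5% were called at 18 h (47.2% over all tested probes), 2 higher and 3 lower. Their mean level over the list was -0.30 to -0.15 in furan and -0.29 to 0.07 in corn oil livers. The chemokine gene Ccl2 fell by 1.09 (SE 0.10, limma adjusted p = 2.73e-05) and Plac8 rose by 0.54 (SE 0.10, limma adjusted p = 0.00191), while Ccr2, Cd14 and S100a8 were too dim. Alb fell by 0.72 at 18 h (SE 0.10, limma adjusted p = 0.000214). Of 12 hepatocyte markers 2 were higher and 7 lower there, or 75% called, against 47.2% of all tested probes. Their mean level over the list was -0.11 to 0.01 in furan and 0.25 to 0.34 in corn oil livers.

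Other cell types gave 1 higher and 1 lower of 8 lymphocyte markers at 18 h, 2 and 5 of 11 sinusoidal endothelial markers, 3 and 4 of 12 stellate cell and fibroblast markers, and 2 and 0 of 6 bile duct markers. The called shares were 25%, 63.6%, 58.3% and 33.3% in that order, against 47.2% of all tested probes. Among the stellate cell and fibroblast genes, the collagen gene Col1a1 rose by 0.60 (SE 0.12, limma adjusted p = 0.00251) and the matrix proteoglycan gene Dcn fell by 0.52 (SE 0.10, limma adjusted p = 0.00221). Over these 7 cell type lists, 0 of 77 measured genes passed at 3 weeks in limma (12 at an unadjusted p under 0.05). Of the mesothelial markers, a list outside these 7, Msln, the gene of the surface protein mesothelin, rose at 3 weeks by 1.32 (SE 0.18, limma adjusted p = 0.0357). Without corn oil liver 6, 0 of all tested probes passed there, Msln included. Msln also rose at 18 h, by 0.37 (SE 0.09, limma adjusted p = 0.00811). Only 2 of 6 mesothelial markers were measured, and the other, Krt5, did not pass. Krt5 had 0.24 at 3 weeks (SE 0.19, limma adjusted p = 0.641) and -0.005 at 18 h (SE 0.08, limma adjusted p = 0.968). The part of these cell types in the member results was not tested.

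**Figure D4:**
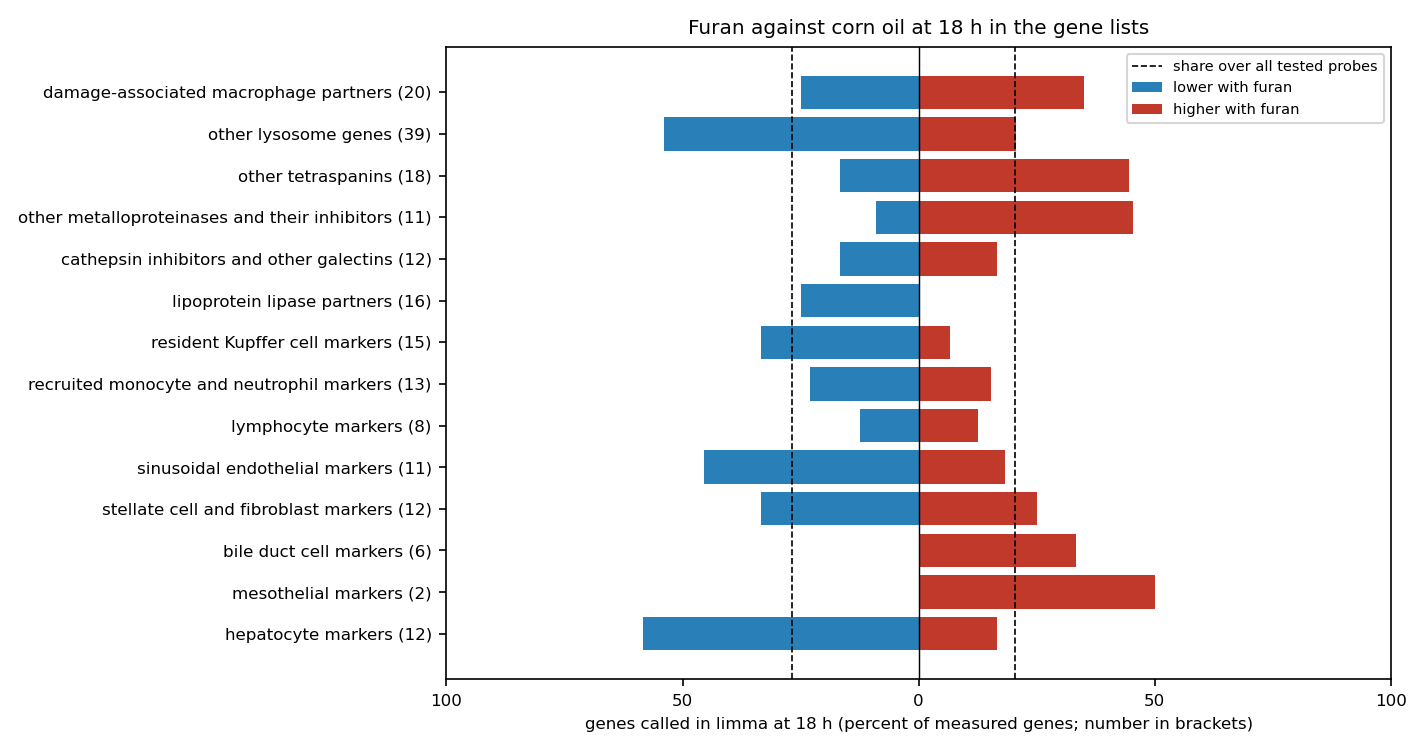
Share of the measured genes of each list that were called lower (left) or higher (right) with furan against corn oil at 18 h in limma, in percent, with the number measured in brackets. The dashed lines mark the shares over all tested probes, 26.8% lower and 20.4% higher. The tetraspanin bar reaches farther right than left, and the bars for other lysosome genes and hepatocyte markers reach farther left than right.

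Leaving out the members, the genes whose pattern over the 15 samples was most like that of Mmp12 were Gsta2, Slpi, Aen, Gm10639 and Tmem62. Likeness was the root mean square difference from the Mmp12 probe after each probe's own mean was taken off, over 13043 genes, and it was 0.27 for Gsta2, 0.29 for Slpi and 0.30 for each of the other 3, against a median of 0.76 over all genes. Gsta2 stood 1.09 higher in furan than in corn oil livers at 18 h and 1.03 higher at 3 weeks. For Cd63 the nearest were Plk2 at 0.20, Slc22a27, Jund and Sf3b3 at 0.23 each, and Rhbdf2 at 0.24, against a median of 0.90. Plk2 stood 0.64 higher in furan livers at 18 h and 0.67 higher at 3 weeks. Members were left out of the genes listed but not of the genes compared, and the measure is a description of these samples with no test.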

How the data were processed

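Per the labels, RNA of fixed liver (Cy5) was hybridised with a pool of all samples (Cy3) to Agilent two-colour mouse arrays, in a reference design with randomized blocks and no dye swap. The scanner files, read by the authors with Agilent Feature Extraction 11.0.1.1, hold median spot and background signals as intensity, not normalized, with build mm9 per the file headers. Per the file headers they also hold Agilent's log10 ratio of sample over reference after its own background subtraction and dye normalization. The value table deposited beside them holds log2 ratios of sample over reference. Its normalization is not given in the sources used here, and its scale and direction were settled against the scanner values (r between 0.856 and 0.978), so it served only as an alternative. Its column medians lay between 0.0163 and 0.0247 for furan and between -0.0051 and 0.00438 for corn oil at 18 h, and between -0.00825 and -0.00133 for furan and between -0.00919 and -0.00159 for corn oil at 3 weeks.

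From the median signals, normexp background correction (offset 50) and loess normalization within arrays gave the ratios. Spots marked non-uniform or as outliers (187 to 308 per array) were left out, and spots of a probe were averaged. Of 55681 probes, 27235 matched a RefSeq symbol by accession. Each of 29690 bright probes was fitted in limma 3.58.1 (R 4.3.3) with slide as a term, 2-sided, with Benjamini-Hochberg adjustment over all tested probes and a threshold of 0.05. Each furan comparison was fitted on the samples of 1 time in formalin. The fits were tested on simulated data. Figures were drawn with Python 3.11.15 and matplotlib 3.10.9. The number of arrays limits the precision.

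Arrays 2.1 and 2.2, with a correlation of 0.923 over the tested probes, were averaged as 1 sample. The lowest correlation between arrays was -0.254, over all probes with the dim ones included, so the 2 values are not comparable. Of the 7 sample numbers shared by both times, 5 had deviations that correlated best with their own number, but only 2 correlated above 0.1 (range 0.0189 to 0.182). Whether the numbers mark the same animals is therefore not settled. The main fit did not pair the samples, so its p-values for time in formalin treat them as independent.

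The members and lists were chosen with earlier results of these data known. The text names all member probes, up to 4 genes of each list with the smallest p at 18 h and up to 2 at 3 weeks, the markers Adgre1, Cd68, Clec4f, Ptprc and Alb, and the 5 genes, members left out, most like Mmp12 and Cd63. For the cell type lists fewer than these were then taken. Alternatives covered background, normalization, filter, slide, variance model, array weights, thresholds, arrays 2.1 and 2.2, the sample number as a block and leaving out each replicate.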

Additional observations from a re-analysis of the deposited data

Results flagged for a closer look

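Among 30 groups of 4 samples, 2 held a sample far from the others of its group, where chance gives about 1 in 20. Ctss had 0.12 in corn oil liver 4 at 18 h, against -0.77 to -0.65 in the other corn oil livers. Ctsb had 0.13 in furan liver 42 at 3 weeks, against -0.14 to -0.10 in the other furan livers.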

How the results depend on the processing

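The number of member probes that passed at 18 h was 7 in the main setting and without each replicate in turn, and the number for time in formalin was 8 in the main setting and without each replicate. Neither moved by over 1.5 times under any alternative run. The member number at 3 weeks rests on the choice of genes, so it is given only as a description and nothing is read from it. The number at 3 weeks, 2, was 4 without background subtraction, 0 with the scanner software's log ratio, 5 with median centring alone, 4 in the authors' deposited values, 0 in the first slide alone, 1 at a threshold of 0.01, 4 with arrays 2.1 and 2.2 as separate samples, 1 with array 2.1 only and 1 with array 2.2 only, and between 0 and 4 without each replicate. Over all probes the 3-week number, 35 (4102 at an unadjusted p under 0.05), was 449 without background subtraction, 0 with the scanner software's log ratio, 2317 with median centring alone, 312 in the authors' deposited values, 322 with arrays 2.1 and 2.2 separate, 17 with array 2.1 only and 22 with array 2.2 only. It was 239 with an intensity trend in the variance, 72 without the slide term, 0 in the first and 265 in the second slide alone, 161 at a threshold of 0.1 and 6 at 0.01, and between 0 and 770 without each replicate, 0 without corn oil liver 6 and 770 without corn oil liver 4. At 18 h it was 14025 over all probes, 8151 in the first and 7049 in the second slide alone, and 9023 at a threshold of 0.01. Direction turned for Trem2 at 18 h, 0.02, to -0.063 without background subtraction and -0.20 in the first slide, with -0.054 to 0.10 without each replicate. It turned for Ctss at 18 h, -0.21, to 0.31 with median centring alone and 0.062 in the second slide, with -0.33 to 0.022 without each replicate. For Lpl at 18 h, -0.10, it turned to 0.38 with median centring alone (limma adjusted p = 0.0309), 0.017 in the authors' deposited values and 0.048 in the first slide, with -0.20 to 0.0091 without each replicate. At 3 weeks it turned for Lpl, 0.16, to -0.12 in the first slide, with -0.028 the lowest without a replicate, and for the first Ctsd probe, 0.03, to -0.12 in the second slide and -0.025 with arrays 2.1 and 2.2 separate, with -0.097 the lowest without a replicate. For time in formalin it turned for Mmp12 to -0.15 with the scanner software's log ratio and -0.30 with median centring alone, for Ctsb to -0.056 with the scanner software's log ratio, and for the second Ctsd probe to -0.31 with median centring alone. The cause was not tested, except that a single slide or a left-out replicate means fewer samples. With the sample number as a replicate block, 7 member probes passed for time in formalin, and Mmp12 had 0.26 (limma adjusted p = 0.0686), while of the 7 numbers 5 had their best correlation with their own number. No paired analysis was possible for furan against corn oil because those groups share no numbers. The first Mmp12 probe had a Cy5 signal of 2.19 to 9.51 times its background, and Gpnmb and the second probes of Mmp12 and Lpl were well above background on 0 of 16 arrays.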
